A study of Mus musculus with 6 samples.

Results

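The megalin-cubilin uptake system of the kidney was described from 7 genes, Lrp2, Cubn, Amn, Dab2, Clcn5, Ocrl and Lrpap1, taken by symbol from a table of 46095 rows. All 7 had a row, and all 7 were among the 15367 genes with enough counts to test. The measurements were RNA sequencing counts from mouse kidney, from 3 samples labelled DHT (dihydrotestosterone, a potent androgen) and 3 labelled control, all on a C57BL/6 background. The strain label reads PCOS mouse (a model of polycystic ovary syndrome) for every sample, the controls included, and only the treatment label tells the groups apart. No dose, duration, route, age or sex is given in the sources used here. The labels do not state whether each sample came from its own animal, and the p-values then reflect sample-to-sample spread, which may be technical. Libraries held 15054763 to 18624947 counts in DHT and 15994714 to 19331942 in control. DHT replicate 2 stood apart from its group: a chi-square of counts per gene was 59.28 and 54.81 between it and DHT replicates 1 and 3, but 45.79, 50.03 and 58.28 between it and control replicates 1, 2 and 3. Between DHT replicates 1 and 3 it was 24.21. The controls were not uniform either: it was 35.49 between replicates 1 and 2, 34.78 between 2 and 3, and 65.11 between 1 and 3. That last value was higher than for any pair of DHT replicates. Values without that library are given where it moved a result. Leaving it out also raised the number of genes with an edgeR adjusted p under 0.05 over the whole table, from 437 of 15367 to 1224 of 15772.

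Proximal tubule cells take filtered proteins back from the tubular fluid through megalin (Lrp2) and cubilin (Cubn), large receptors of the brush border. Amnionless (Amn) anchors cubilin in the membrane, since cubilin has no transmembrane segment, and the receptor-associated protein (Lrpap1) is a chaperone that escorts megalin through the endoplasmic reticulum. Dab2 is the clathrin adaptor that binds the tail of megalin, Clcn5 encodes the chloride-proton exchanger ClC-5 of endosomes, and Ocrl encodes an inositol 5-phosphatase of endosomes and the trans-Golgi. In humans, loss of CLCN5 causes Dent disease, loss of OCRL causes Lowe syndrome, and loss of CUBN or AMN causes Imerslund-Gräsbeck syndrome, with protein in the urine as a shared feature.

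None of the 7 genes passed the test between DHT and control, and they did not shift in 1 direction. Megalin was lower in every DHT library than in every control library, with a fold of 0.754 of DHT over control, and cubilin lay in the same direction with a smaller difference. The chaperone Lrpap1 lay on the other side at a fold of 1.22, with overlapping groups, and in DHT replicate 2 it lay just below the lowest control. Megalin transcript per chaperone transcript was lower in all 3 DHT libraries than in any control library. An exact permutation test could not decide on that ratio, since 0.1 is the smallest p that 3 samples against 3 can give. The ratio had that p of 0.1, and an adjusted p of 0.525 over 21 ratios. The ratio of megalin to 42.7% of all other genes did not overlap between the groups either. Over all genes, 2.84% passed an adjusted p of 0.05 by edgeR's quasi-likelihood test with Benjamini-Hochberg adjustment, 437 of 15367, with 1.38% higher and 1.46% lower in DHT. Of the 7 genes 0 passed in either direction, and 0 had an unadjusted p under 0.05, against 23.9% of all genes. Megalin lay at that edge, with an unadjusted edgeR p of 0.0502. DESeq2 and limma-voom also called 0, with 1 gene at an unadjusted p under 0.05 in each, megalin. The same held for edgeR with total counts, no low-count filter or a filter of 1 CPM in 3 libraries. Leaving out control replicate 3 gave 1 gene downward, and leaving out DHT replicate 2 gave 1 upward and 1 downward. Groups did not overlap for 2 of the 7, or 28.6%, against 29.8% of all tested genes, which is near the background. The median log2 fold change of the 7 was -0.09, against 0.003 for all tested genes. Since the samples are bulk kidney RNA, fewer cells of a type and less RNA per cell cannot be told apart.

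**Figure D1:**
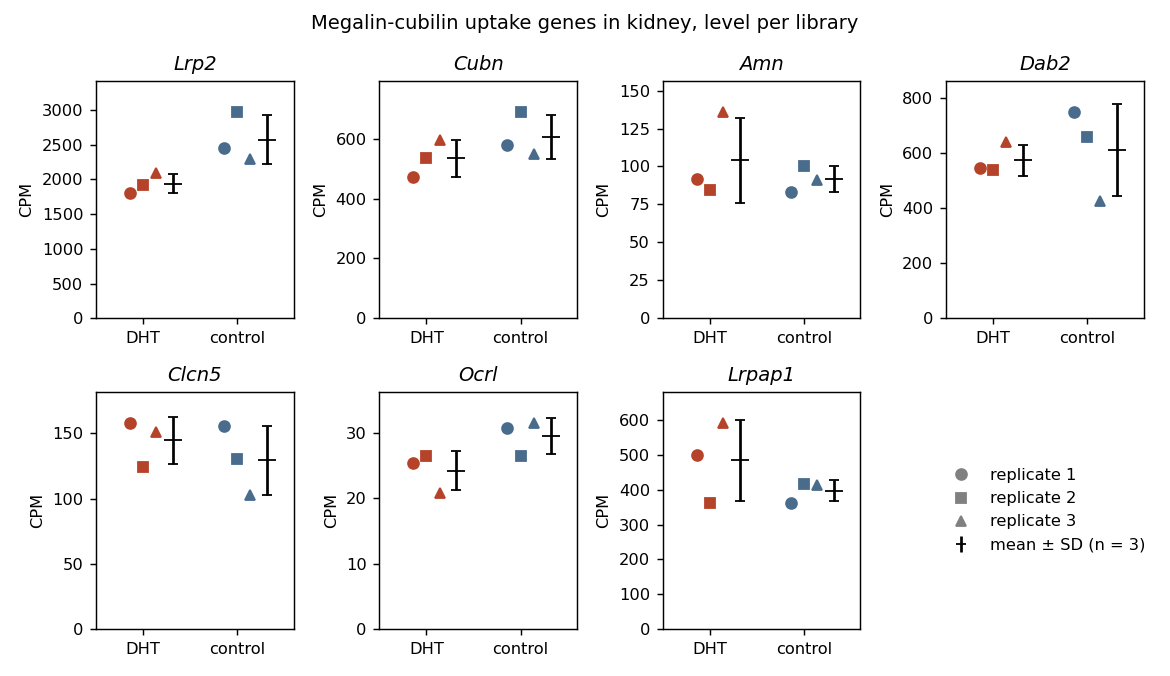
Level of each of the 7 genes in library-size-scaled counts (CPM, y axis from 0) in the 3 DHT and 3 control libraries; each symbol is 1 library and the bar is the mean ± SD (n = 3). For Lrp2 the 3 DHT libraries lie between 1808 and 2089.9 CPM, all below the controls at 2292 to 2972 CPM.

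Megalin, the receptor, was by far the most counted of the 7. Lrp2 (ENSMUSG00000027070.14, chromosome 2, 69424340 to 69586065, minus strand, GRCm38) has 79 exons in its longest coding transcript of 15460 bases. It stood at 1808, 1924 and 2089.9 CPM in DHT replicates 1, 2 and 3, against 2455, 2972 and 2292 CPM in control replicates 1, 2 and 3. The groups did not overlap, and the gap between the highest DHT library and the lowest control library was smaller than the spread among the controls. The means were 1940.5 ± 142 CPM in DHT against 2573 ± 355 CPM in control (SD, n = 3 each), a log2 fold change of -0.41 ± 0.18 (SE; 95% interval -0.81 to 0.00034), with an edgeR adjusted p of 0.209. Its lowest adjusted p over 15 other settings was 0.0628, with DESeq2, and its log2 fold change stayed between -0.51 and -0.29 over all of them. Control replicate 2 had the highest megalin level, and without that library the log2 fold change was -0.29 (edgeR adjusted p = 0.496).

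Cubilin, the partner receptor, binds intrinsic factor with vitamin B12, albumin and other ligands. Cubn (ENSMUSG00000026726.10, chromosome 2, 13276338 to 13491813, minus strand) was at 473, 536 and 596 CPM in DHT replicates 1, 2 and 3, against 579.6, 690.4 and 548 CPM in control replicates 1, 2 and 3. The highest DHT library, replicate 3, lay above 2 of the 3 controls. The means were 535 ± 61.4 CPM in DHT against 606 ± 74.6 CPM in control (SD, n = 3 each), a log2 fold change of -0.18 ± 0.16 (SE; 95% interval -0.55 to 0.19; edgeR adjusted p = 0.531). Without control replicate 2 the log2 fold change of Cubn was -0.08 and without DHT replicate 1 it was -0.10, both smaller by over 1.5 times. A total of 2.46% of the exonic bases of Cubn are shared with Gm13270, a transcript on the opposite strand, and strand use in counting is not given.

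Amnionless forms the cubam complex with cubilin. Amn (ENSMUSG00000021278.7, chromosome 12, 111271095 to 111276426, plus strand) is a short gene of 12 exons. It was at 91.4, 84.5 and 136 CPM in DHT replicates 1, 2 and 3, against 83.0, 100.5 and 91.4 CPM in control replicates 1, 2 and 3. DHT replicate 3 alone lay above the control range, and the other DHT libraries lay within it. The log2 fold change was 0.18 ± 0.19 (SE; 95% interval -0.24 to 0.60; edgeR adjusted p = 0.581), and without DHT replicate 3 it turned to -0.06. It was 0.30 without DHT replicate 2, which stood apart, and 0.11 without control replicate 1.

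The start regions of the 3 receptor genes are shown because they code for the receptor complexes, megalin and cubilin with its anchor, and because the treatment was an androgen. Each sequence runs 5′ to 3′ on the gene's own strand, from 250 bases before to 50 bases after the RefSeq start on GRCm38.p6; capitals mark exact matches to any of 4 short motifs, and all else is in lower case.
Lrp2, chr2:69585980-69586279, minus strand: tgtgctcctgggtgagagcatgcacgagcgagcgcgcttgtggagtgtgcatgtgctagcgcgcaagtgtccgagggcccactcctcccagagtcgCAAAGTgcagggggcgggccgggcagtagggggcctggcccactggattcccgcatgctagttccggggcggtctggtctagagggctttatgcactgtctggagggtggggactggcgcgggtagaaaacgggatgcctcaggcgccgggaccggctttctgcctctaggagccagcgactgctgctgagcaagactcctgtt
Cubn, chr2:13491827-13492126, minus strand: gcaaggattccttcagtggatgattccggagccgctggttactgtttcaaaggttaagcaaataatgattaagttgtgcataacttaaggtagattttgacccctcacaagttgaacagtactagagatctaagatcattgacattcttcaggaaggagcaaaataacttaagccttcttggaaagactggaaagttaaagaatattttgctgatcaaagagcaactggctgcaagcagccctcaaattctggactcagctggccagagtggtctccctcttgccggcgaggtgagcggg
Amn, chr12:111270846-111271145, plus strand: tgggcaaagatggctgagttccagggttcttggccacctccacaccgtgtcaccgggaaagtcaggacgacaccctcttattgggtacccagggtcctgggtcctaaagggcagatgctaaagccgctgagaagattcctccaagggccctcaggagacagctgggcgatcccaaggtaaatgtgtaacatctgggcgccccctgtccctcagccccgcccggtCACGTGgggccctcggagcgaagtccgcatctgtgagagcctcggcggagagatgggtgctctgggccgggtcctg
Each motif was searched on both strands, and no match overlapped another in these windows. The half-site of the androgen receptor was read as AGAACA. For the nuclear receptor HNF4 the half-site was read as CAAAGT. The E-box of helix-loop-helix factors was read as CACGTG, and the box bound by the basal transcription machinery as TATAAA, the TATA box. Of 32851 such windows of all genes, 19% held the androgen receptor half-site, 14.4% the HNF4 half-site, 7.15% the E-box and 13.6% the TATA box. The Lrp2 window held CAAAGT once, at position -154 from the start, the Amn window held CACGTG once, at -26, and the Cubn window held no exact match to any of the 4. The windows also differed in base composition: GC content was 65% for Lrp2, 62.3% for Amn and 44.3% for Cubn, against a median of 52.7% over all windows, and CpG occurred 20, 15 and 5 times. Among the other genes AGAACA was met in 1 window, in a start region of Clcn5. The HNF4 half-site was also met in a start region of Dab2, of Clcn5 and of Ocrl, and the TATA box in a start region of Clcn5. A match is a description of letters and not a bound site, and all 7 genes had a window.

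The receptor-associated protein was the member with the largest difference upward. Lrpap1 (ENSMUSG00000029103.16, chromosome 5, 35091501 to 35105766, minus strand) was at 499, 361 and 593 CPM in DHT replicates 1, 2 and 3, against 362, 416 and 414 CPM in control replicates 1, 2 and 3. DHT replicates 1 and 3 lay above all controls, while DHT replicate 2 lay just below the lowest of them. The means were 484 ± 117 CPM in DHT against 397 ± 30.5 CPM in control (SD, n = 3 each), a log2 fold change of 0.29 ± 0.19 (SE; 95% interval -0.16 to 0.73; edgeR adjusted p = 0.397). Without DHT replicate 2 the log2 fold change of Lrpap1 was 0.45 (edgeR adjusted p = 0.115), and without DHT replicate 3 it was 0.12 (0.773).

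Dab2, the adaptor that links megalin to clathrin, varied more among the controls than between the groups. Dab2 (ENSMUSG00000022150.16, chromosome 15, 6299788 to 6440712, plus strand) was at 544, 536 and 638 CPM in DHT replicates 1, 2 and 3, against 749, 658 and 426 CPM in control replicates 1, 2 and 3. Control replicates held both the highest and the lowest level, with all 3 DHT libraries between them. The log2 fold change was -0.09 ± 0.22 (SE; 95% interval -0.59 to 0.40; edgeR adjusted p = 0.821). It turned to 0.07 without control replicate 1 and was -0.30 without control replicate 3. Leaving out any other library gave -0.18 to -0.04, with -0.06 without DHT replicate 2. Dab2 is also expressed in macrophages and endothelium: the summed level of 10 macrophage markers was 111, 389 and 250 CPM in DHT replicates 1, 2 and 3, against 112, 166 and 245 CPM in control replicates 1, 2 and 3, with all 10 tested. By edgeR 0 of the 10 were called, and 2 were upward at an unadjusted p under 0.05, against 23.9% of all genes in either direction. DESeq2 called C1qc, a complement subunit, higher. Without DHT replicate 2 the median log2 fold change of the 10 fell from 0.70 to 0.08, with 0 at an unadjusted edgeR p under 0.05. The 7 endothelial markers summed to 457, 813 and 469 CPM in DHT and 493, 506 and 639 CPM in control, by replicate, with 0 called by edgeR. The part of either list in the level of Dab2 was not tested. A total of 2.87% of the exonic bases of Dab2 are shared with the pseudogene Gm18888 on the opposite strand.

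The endosomal members, both on the X chromosome, lay on different sides of 0. Clcn5 (ENSMUSG00000004317.14, chromosome X, 7153810 to 7319358, minus strand) was at 158, 124 and 151 CPM in DHT replicates 1, 2 and 3, against 156, 130 and 102 CPM in control replicates 1, 2 and 3. The groups overlapped across most of their range. The log2 fold change of Clcn5 was 0.16 ± 0.17 (SE; 95% interval -0.23 to 0.55; edgeR adjusted p = 0.603), but it was 0.01 without control replicate 3, the lowest control, and 0.31 without control replicate 1, the highest. Without DHT replicate 2, the lowest DHT library, it was 0.25.

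Ocrl (ENSMUSG00000001173.15, chromosome X, 47912387 to 47965868, plus strand) was the least abundant of the 7, with 351 to 422 counts per library in DHT and 500 to 639 in control. It stood at 25.4, 26.4 and 20.8 CPM in DHT replicates 1, 2 and 3, against 30.7, 26.5 and 31.6 CPM in control replicates 1, 2 and 3. The groups did not overlap, but DHT replicate 2 at 26.43 and control replicate 2 at 26.46 CPM were nearly level. The log2 fold change of Ocrl was -0.29 ± 0.14 (SE; 95% interval -0.60 to 0.02), with an edgeR adjusted p of 0.241 and the smallest standard error of the 7, and without DHT replicate 3 it was -0.19. None of the 7 genes has a transcript of another gene that is at least 95% identical over at least 50% of its longest coding transcript.

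**Figure D2:**
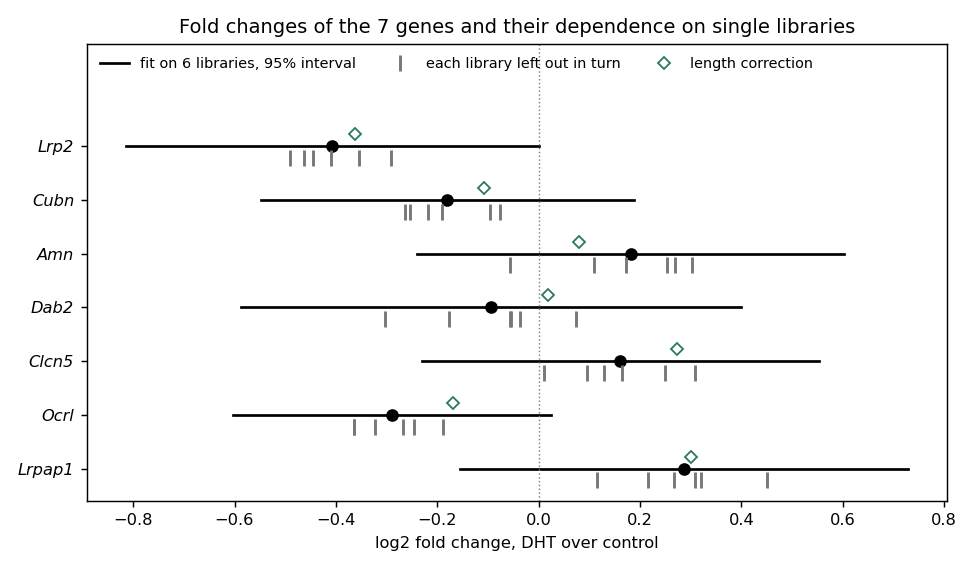
Log2 fold change of DHT over control (x axis) for each of the 7 genes: points with lines are the edgeR estimate from 6 libraries with its 95% interval, grey ticks the estimate with each library left out in turn, and green diamonds the estimate after correction for gene length. All 7 intervals reach 0, and ticks of Amn and Dab2 fall on both sides of it.

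Transcript length moved with the direction of change over all genes. The median log2 fold change was 0.25 over 1202 genes with a longest transcript under 1 kb, 0.16 over 2839 genes of 1 to 2 kb, 0.0075 over 5591 genes of 2 to 4 kb, -0.11 over 3886 genes of 4 to 8 kb and -0.08 over 756 genes over 8 kb. Of the 7 genes, Amn at 1701 bases and Lrpap1 at 2981 bases had positive values, and Dab2 at 4663, Ocrl at 5253, Cubn at 11262 and Lrp2 at 15460 bases had negative ones, while Clcn5 at 8390 bases was positive. With the length trend of each library removed, a correction chosen after the data were seen, Lrp2 had a log2 fold change of -0.36 (edgeR adjusted p = 0.314) and Lrpap1 of 0.30 (0.393). Cubn came to -0.11, Amn to 0.08 and Ocrl to -0.17 after that correction, each smaller by over 1.5 times, Clcn5 came to 0.27, larger by over 1.5 times, and Dab2 turned to 0.02.

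Ratios between the genes within a library do not depend on how libraries are scaled. Of the 21 ratios among the 7 genes, 4 did not overlap between the groups, against 28.4% of the ratios of all pairs of tested genes. All 4 were among the 6 ratios of megalin to another member. Since the level of megalin itself did not overlap, these are not separate from its own difference, and its ratio to 42.7% of all other genes did not overlap either, with DHT below for 40.1%. The megalin to cubilin ratio of CPM was 3.82, 3.59 and 3.51 in DHT replicates 1, 2 and 3, against 4.24, 4.31 and 4.18 in control replicates 1, 2 and 3. The ratio varied little within each group, and its log2 difference was -0.22 (DHT minus control), between -0.26 and -0.20 with any 1 library left out. The megalin to amnionless ratio was 19.8, 22.8 and 15.4 in DHT replicates 1, 2 and 3, against 29.6, 29.6 and 25.1 in control replicates 1, 2 and 3. The megalin to chaperone ratio was 3.62, 5.34 and 3.53 in DHT and 6.79, 7.15 and 5.54 in control, again by replicate. The fourth was megalin to Clcn5, at 11.4, 15.5 and 13.8 in DHT and 15.8, 22.8 and 22.4 in control. Each of these 4 had a two-sided exact permutation p of 0.1, the smallest that 3 samples against 3 can give, and an adjusted p of 0.525 over the 21 ratios, so none passed. The Lrp2 and Cubn transcripts are both long, at 15460 and 11262 bases, while that of Amn has 1701 bases and that of Lrpap1 2981. A correction for length was not applied to the ratios.

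**Figure D3:**
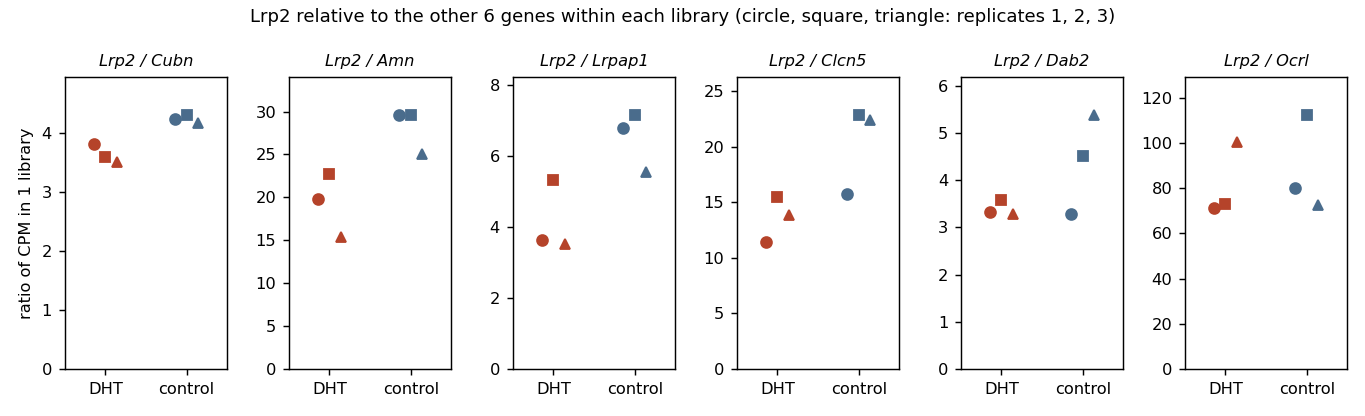
Ratio of Lrp2 CPM to the CPM of each of the other 6 genes within 1 library (y axes from 0), with DHT left and control right and 1 symbol per library. For Cubn the DHT ratios lie between 3.51 and 3.82 and the control ratios between 4.18 and 4.31, while the ratios to Dab2 and Ocrl overlap.

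Per kilobase of exons, the genes spanned a wide range of levels. Lrp2 had 116 ± 8.49 CPM per kb in DHT against 154 ± 21.3 in control, Lrpap1 118 ± 28.4 in DHT against 96.5 ± 7.41 in control, and Dab2 78.0 ± 7.72 in DHT against 83.2 ± 22.7 in control (SD, n = 3 each). Amn had 56.4 ± 15.1 CPM per kb in DHT against 49.7 ± 4.75 in control, and Cubn 35.8 ± 4.11 in DHT against 40.6 ± 4.998 in control. Clcn5 had 12.6 ± 1.56 CPM per kb in DHT against 11.3 ± 2.32 in control, and Ocrl 2.56 ± 0.316 in DHT against 3.12 ± 0.291 in control. In the order of means over 6 libraries, Lrp2, Lrpap1, Dab2 and Amn each overlapped the next in line, whereas Cubn stood wholly above Clcn5, and Clcn5 wholly above Ocrl. With the longest coding transcript as the length, Lrpap1 at 148 and Lrp2 at 146 CPM per kb changed places, and the other 5 kept their order. Megalin transcript stood above cubilin transcript per length in every library.

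**Figure D4:**
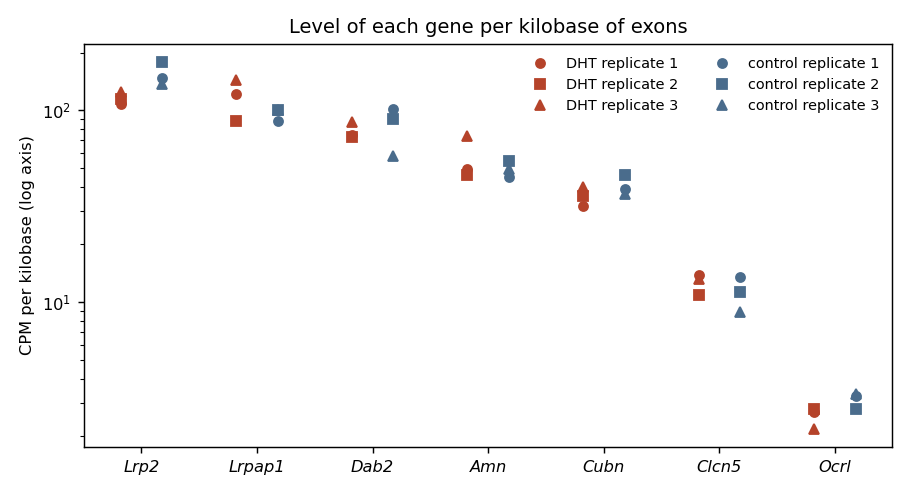
Level of each gene in CPM per kilobase of merged exons (log y axis), in order of the mean over 6 libraries, with DHT symbols left and control symbols right for each gene. Ocrl lies between 2.20 and 3.33 in all libraries, and Clcn5 between 8.95 and 13.8.

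The profile of megalin over the 6 libraries was compared with those of 9663 genes averaging 10 CPM or more, by the root mean square difference of log2 CPM after each gene was centred on its own mean. The 3 genes nearest to Lrp2 were Erbb3, which encodes a receptor of the EGF receptor family, Setbp1 and Peo1, the mitochondrial helicase Twinkle, at 0.0387, 0.0587 and 0.0627 log2 units. Erbb3 stood at 42.4, 43.7 and 50.01 CPM in DHT replicates 1, 2 and 3, against 54.1, 67.4 and 52.2 CPM in control replicates 1, 2 and 3, and it did not pass the test (edgeR adjusted p = 0.16). The 3 genes nearest to Cubn were Sufu, a repressor of Hedgehog signalling, Zfp36l2, an RNA-binding protein, and Lmf1, a lipase maturation factor, at 0.0425, 0.0539 and 0.0594 log2 units. Cubn itself was the gene with rank 72 in nearness to Lrp2, at 0.117, which was the smallest distance between any 2 of the 7 genes. Amn and Lrpap1 were at 0.131 from each other, and Dab2 and Clcn5 at 0.177. With 6 libraries such nearness is a description.

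Other genes of the endocytic route were read from 6 lists by role, 114 genes of which 111 were tested. A single gene passed, 0.901% of those tested against 2.84% of all genes. For the counts given below, 23.9% of all genes had an unadjusted edgeR p under 0.05 in either direction. DESeq2 called 1634 of all 15367 genes, 854 higher and 780 lower. Appl2, an adaptor of signalling endosomes that binds Rab5, fell in DHT. It was at 44.5, 44.4 and 34.2 CPM in DHT replicates 1, 2 and 3, against 85.9, 81.7 and 74.1 CPM in control replicates 1, 2 and 3, with a wide gap between the groups. The log2 fold change of Appl2 was -0.97 ± 0.13 (SE, edgeR adjusted p = 0.0165). The call of Appl2 was lost without DHT replicate 1 (adjusted p = 0.0609), DHT replicate 3 (0.0943) or control replicate 2 (0.0876), and it stood with DESeq2, limma-voom and the length correction. Its paralogue Appl1 had a log2 fold change of -0.10 and overlapping groups.

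Besides Appl2, 20 adaptors, coat proteins and motors did not pass by edgeR, and the median of the list of 21 was -0.02. Myo6, the motor that draws coated vesicles from the brush border, was at 468 ± 51.9 CPM in DHT against 418 ± 15.6 CPM in control. Inpp5b, the phosphatase related to Ocrl, was at 108, 61.5 and 111 CPM in DHT replicates 1, 2 and 3, against 81.9, 70.1 and 63.0 CPM in control replicates 1, 2 and 3. The groups of Inpp5b overlapped through DHT replicate 2, and without that library it was higher in DHT (log2 fold change 0.60, edgeR adjusted p = 0.0384), against 0.38 (0.332) with all 6. In that fit 745 of 15772 genes were called higher. Of the 21 genes, 2 had an unadjusted edgeR p under 0.05 upward and 5 downward, Appl2 included, against 23.9% of all genes in either direction.

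Of 25 genes of early and recycling endosomes, 0 passed by edgeR and limma-voom. At an unadjusted edgeR p under 0.05 there were 4, all upward, against 23.9% of all genes in either direction. DESeq2 called 2 higher, Rab5c and Snx17, against 1634 of 15367 called over all genes. Snx17, a sorting nexin that returns LDL receptor family members to the surface, was at 98.8, 92.7 and 103 CPM in DHT replicates 1, 2 and 3, against 70.5, 71.2 and 75.5 CPM in control replicates 1, 2 and 3. The groups of Snx17 did not overlap, and its log2 fold change was 0.44 ± 0.10 (SE, edgeR adjusted p = 0.0595). Without DHT replicate 2 the edgeR adjusted p of Snx17 was 0.0448, in a fit that called 745 of 15772 genes higher. Phb2, a mitochondrial prohibitin that the list also holds, had a log2 fold change of 0.39 ± 0.13 (SE, edgeR adjusted p = 0.122).

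Endosomal acidification depends on the V-ATPase proton pump and on chloride transporters such as ClC-5. Of 22 such genes 0 passed by edgeR and limma-voom, and DESeq2 called 1 higher, Atp6v1d. The median of the list was 0.19, with 16 genes above 0 and 6 below, and groups did not overlap for 10 of the 22, with DHT above in 9. Over all tested genes 29.8% did not overlap, and DHT lay above in 14.8%. The median was 0.12 without control replicate 3, 0.11 with the length correction, and 0.09 with total counts, where the median of all genes was -0.1. At an unadjusted edgeR p under 0.05 there were 4 upward and 1 downward, against 23.9% of all genes in either direction. Atp6v1d, a subunit of the rotor, was at 149.96 ± 15.6 CPM in DHT against 116 ± 3.51 CPM in control (log2 fold change 0.38 ± 0.12 SE, edgeR adjusted p = 0.113), and Atp6v0e, a membrane subunit, had 0.33 ± 0.11 (0.128). Clcn4, a close relative of Clcn5, had -0.18 ± 0.12 (edgeR adjusted p = 0.377). The 7 markers of intercalated cells, V-ATPase subunits among them, had a median of 0.17, with 6 above 0 and 1 below. DHT lay wholly above control for 3 of these 7 and wholly below for 1. Of the 7, edgeR called 0 and DESeq2 called 2 higher. At an unadjusted edgeR p under 0.05, 2 of the 7 were upward and 1 downward, against 23.9% of all genes in either direction. The part of intercalated cells in the acidification values was not tested.

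Among 17 other endocytic receptors 0 passed by edgeR and limma-voom, and the median was -0.01. At an unadjusted edgeR p under 0.05 there were 2 upward and 1 downward, against 23.9% of all genes in either direction. DESeq2 called these 3, Fcgrt and Lrp12 higher and Sorl1 lower. Fcgrt, the neonatal Fc receptor that salvages albumin and immunoglobulin, was at 218, 239.9 and 261 CPM in DHT replicates 1, 2 and 3, against 185, 188 and 168 CPM in control replicates 1, 2 and 3. The groups of Fcgrt did not overlap, and its log2 fold change was 0.41 ± 0.13 (SE, edgeR adjusted p = 0.106; DESeq2 0.0278). Lrp12, a low-abundance LDL receptor relative, was at 18.8 ± 2.46 CPM in DHT against 13.0 ± 0.776 CPM in control (edgeR adjusted p = 0.082).

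Of 17 genes for ligands of megalin or cubilin 14 were tested and 0 passed by edgeR and limma-voom. At an unadjusted edgeR p under 0.05, 1 was upward and 1 downward, against 23.9% of all genes in either direction. DESeq2 called Ambp lower. Ambp, the precursor of alpha-1-microglobulin, was at 1.56 ± 0.291 CPM in DHT against 3.34 ± 0.320 CPM in control (log2 fold change -1.09 ± 0.30 SE, edgeR adjusted p = 0.0769). Mt1, a metallothionein, was at 107 ± 10.9 CPM in DHT against 68.4 ± 23.1 CPM in control (edgeR adjusted p = 0.129), and without control replicate 3 the adjusted p of Mt1 was 0.0477. Gc, the vitamin D-binding protein that megalin retrieves, was named after its values were seen: it stood at 19.9, 83.7 and 35.1 CPM in DHT replicates 1, 2 and 3, against 114, 115 and 86.9 CPM in control replicates 1, 2 and 3. The groups of Gc did not overlap, but DHT replicate 2 lay near the lowest control. Without that library Gc was lower by edgeR's adjusted test, as were 479 of 15772 genes over the whole table. Plg, or plasminogen, also named after its values were seen, had 16, 7 and 17 counts in DHT replicates 1, 2 and 3, against 0 in each control. Plg fell under the low-count filter and was not tested, but edgeR called it higher without that filter, without DHT replicate 2 and without control replicate 1.

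Of 12 transcription factors of the proximal tubule 0 passed by edgeR, DESeq2 or limma-voom, and 0 had an unadjusted edgeR p under 0.05. Hnf4a, a nuclear receptor, was at 810.02 ± 162 CPM in DHT against 674 ± 79.7 CPM in control, and Tfeb, a regulator of lysosomal genes, at 24.1 ± 3.57 CPM in DHT against 21.0 ± 3.40 CPM in control. The smallest p-values were those of Maf, with a log2 fold change of -0.46 ± 0.26, and the vitamin D receptor Vdr, with -0.28 ± 0.17 (SE, edgeR adjusted p = 0.331 and 0.349). Maf was -0.23 without control replicate 1 and -0.72 without control replicate 3 (adjusted p = 0.66 and 0.0913), and Vdr was -0.45 without control replicate 3.

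**Figure D5:**
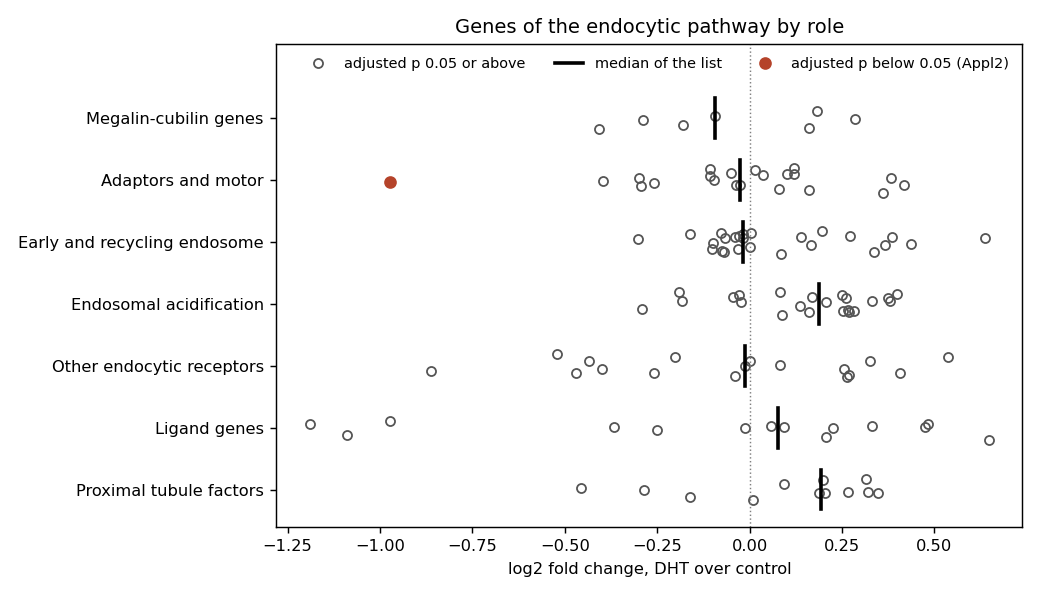
Log2 fold change of DHT over control (x axis) for each tested gene of the 7 megalin-cubilin genes and of 6 lists of the endocytic route, with the median of each list as a bar and vertical scatter for legibility only. The single filled point is Appl2 at -0.97, and the median of the acidification genes is 0.19.

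Markers of the cells that make these proteins were read beside them. Defining kidney genes were present in every library, among them Umod of the loop of Henle at 2759 to 7598 CPM. The 12 markers of the convoluted proximal tubule, where megalin is most abundant, had a summed level of 11367, 10165 and 13204 CPM in DHT replicates 1, 2 and 3, against 15203, 12423 and 9834 CPM in control replicates 1, 2 and 3. These sums overlapped between the groups, and 0 of 12 passed by edgeR, while DESeq2 called 1 higher and 2 lower. At an unadjusted edgeR p under 0.05, 1 was upward and 2 downward, against 23.9% of all genes in either direction. The median log2 fold change of the 12 was -0.17, with 9 below 0, and it turned to 0.098 without control replicate 1. The 8 markers of the straight segment summed to 9444, 4092 and 8748 CPM in DHT and 2828, 4721 and 3773 CPM in control, by replicate, with 1 of 8 higher, Slc7a13 (log2 fold change 9.10 ± 1.002 SE, edgeR adjusted p = 0.0201), which moved far more than any of the 7 genes. Leaving out DHT replicate 1 or 3, or control replicate 2 or 3, ended that call (adjusted p = 0.0543, 0.0911, 0.0876 and 0.0865). Without DHT replicate 2, 5 of the 8 were higher by edgeR, as were 745 of 15772 genes over the whole table. With all 6 libraries the median log2 fold change of the 8 was 1.26, with 7 above 0 and 1 below. DESeq2 called 4 of the 8 higher and 0 lower, in a test that called 1634 genes over the whole table. EdgeR without the robust step called 3 of the 8 higher. At an unadjusted edgeR p under 0.05, 4 of the 8 were upward and 1 downward, against 23.9% of all genes in either direction. Loop of Henle markers summed to 4504 to 5516 CPM in DHT and 4357 to 11637 CPM in control, the highest in control replicate 3, the library lowest in Lrp2, Cubn, Dab2 and Clcn5 among the controls. Of the 12 lists of cell type markers, 84 genes were tested and Slc7a13 was the single call by edgeR, 1.19% against 2.84% of all genes. Their part in the levels of the 7 genes was not tested.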

How the data were processed

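RNA from 6 mouse kidney samples was sequenced, 3 labelled DHT and 3 control. Per the labels' protocols, extraction was by Trizol and the mRNA libraries followed Illumina's protocol. Per the submitters' processing notes, HISAT2 2.0 and mm10 were used. Which counting tool, annotation and strand setting the authors chose is not given in the sources used here. Deposited values were whole-number counts for each symbol, not normalized, and each column was matched to a sample by title.

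Counts were filtered with filterByExpr (minimum count 10, minimum total 15), scaled by TMM and tested with edgeR 4.0.16 in R 4.3.3 (robust quasi-likelihood fit, group as the single term), with Benjamini-Hochberg adjustment over 15367 genes at 0.05. SE values are those the F statistic implies, and 95% intervals use its degrees of freedom. CPM values are counts scaled to a common library total with TMM-scaled library sizes. The common biological coefficient of variation was 0.217. Libraries held 15054763 to 19331942 counts. The labels name no batch. Of the 46095 rows, 27 bear dates in place of symbols (0.142% of counts) and were kept.

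Gene models were GENCODE M21 on GRCm38, the assembly of mm10, matched by symbol. Lengths were found for 92.9% of tested and 93.8% of called genes. Transcripts were compared with BLAST 2.17.0+, and promoter windows were from RefSeq on GRCm38.p6. Length correction removed a loess trend (span 0.3) from each library. Alternatives were median-ratio factors, total counts, 2 other low-count filters, DESeq2 1.42.0, limma-voom (limma 3.58.1), no robust step, a replicate block and each library left out.

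The members and lists were chosen with earlier results of these data known. Genes named were the 7 members, 8 chosen pathway genes (some are not reported here), called genes of each pathway list or else its 2 genes of smallest p, and 3 profile neighbours each of Lrp2 and Cubn. Members of lists named outside this rule (Appl1, C1qc, Rab5c, Sorl1, Gc, Plg, Umod, Slc7a13) were chosen after their values were seen. No explanation of a difference was tested.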

Additional observations from a re-analysis of the deposited data

How the results depend on the processing

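Of the 7 genes, 0 were called under each of the 15 alternatives. The numbers of genes called over the whole table, 437 as reported, were 852 without a low-count filter, 1634 with DESeq2, 219 with the length correction and 0 to 1224 with 1 library left out, 0 without DHT replicate 3 and 1224 without DHT replicate 2. Calls in the pathway lists, 1 as reported, were 2 without the filter, 8 with DESeq2 (5 higher, 3 lower) and 0 to 5 with 1 library left out. Calls among cell type markers, 1 as reported, were 2 without the filter, 12 with DESeq2 (9 higher, 3 lower), 3 without the robust step and 0 to 8 with 1 library left out. With 1 library left out, log2 fold changes ran from -0.0571 to 0.303 for Amn and -0.303 to 0.0732 for Dab2, each with both signs. Dab2 was 0.0194 with the length correction. With total counts the median of all genes was -0.1. The cause was not tested. With the replicate number as a block (replicate block), 85 genes were called, 36 higher and 49 lower, and Lrp2 had a log2 fold change of -0.40 (edgeR adjusted p = 0.344). Same-numbered samples had correlations of deviations of 0.0845, -0.163 and 0.0535, and not every sample correlated best with its own number, so the numbers were not taken as pairs. Per kilobase of the longest coding transcript, mean levels over the 6 libraries were 147.8 CPM for Lrpap1, 126.9 for Dab2, 50.66 for Cubn, 16.33 for Clcn5 and 5.124 for Ocrl, against 107, 80.62, 38.2, 11.97 and 2.838 CPM per kilobase of merged exons. Among the 7 genes, counts per library were lowest for Ocrl, at 351 to 639.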
